A study of Rattus norvegicus with 9 samples.

Results

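Hyaluronan is made, bound, and cut by the products of a small set of genes, and 10 of them were examined here, namely the synthases Has1, Has2, and Has3, the matrix partners Vcan, Hapln1, Hapln3, and Tnfaip6, the receptors Cd44 and Hmmr, and the hyaluronidase Hyal2. They were chosen by name, and all 10 were found among the 35362 genes of the deposited table. The cells were SASCs, PASCs, and EASCs, which are adipose-derived mesenchymal stem cells grown from the groin (subcutaneous), perirenal, and epididymal fat pads of 6-week-old male rats of the Sprague Dawley strain. Cells of all groups were released with collagenase type I, selected only by adherence to plastic, grown with fetal bovine serum, and sequenced at passage 3, and the labels name no treatment. Each group has 3 samples, and the methods describe replicates as culture wells without saying if the wells of a group held cells of different animals, so p-values measure only the spread between these samples, which may be technical.

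Hyaluronan is a long, unsulfated sugar chain that synthases in the plasma membrane build from UDP-glucuronic acid and UDP-N-acetylglucosamine and push out of the cell. Outside the cell, the chain is organized by proteins that hold a link module, among them the large proteoglycan versican, the link proteins of the Hapln family, TSG-6 (the product of Tnfaip6), and the receptor CD44. Hyaluronidases and related proteins then cut it into fragments, and in fat this matrix surrounds the stromal cells and is remodeled as the tissue expands.

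The table holds counts of reads per gene, with totals between 17591916 and 30299032 per sample. Levels of one gene are compared between groups as CPM, counts relative to the library total after TMM scaling. Levels of different genes are compared as FPKM, which also divides by gene length. At this depth, 3 counts correspond to 0.104 to 0.159 CPM, and this limit covers counting error only. The table counts ribosomal reads both for Rn45s and for the genes within it, and with those inner genes left out of sum and total, ribosomal RNA took 5.59% to 8.50% of an SASCs library, 12.7% to 19.8% of a PASCs library, and 8.69% to 25.4% of an EASCs library. All 10 listed mesenchymal markers were above 3 counts in every sample, but their levels differed widely, with a mean CPM of Dcn of 6876 for SASCs, 218 for PASCs, and 300.4 for EASCs, and of Col1a1 of 10692, 19124, and 20321. The summed CPM of 6 smooth muscle and pericyte markers was 96.0 to 100.4 for SASCs, 1152 to 1185 for PASCs, and 2966 to 2999 for EASCs. Acta2 made up most of it in each group (means of 55.7, 910, and 2199 CPM), and the pericyte marker Rgs5 went the other way (1.25, 0.0759, and 0.169 CPM). The sum of 8 mesothelial markers was 18.6 to 20.2, 95.0 to 102, and 130 to 142. Of those 8 markers, Krt18 was at 0 in SASCs and Krt19 at 0 in PASCs. Sums highest in SASCs included those of 6 adipocyte markers (101 to 110, 23.3 to 24.1, and 12.0 to 12.8) and 4 Schwann and glial markers (30.0 to 33.9, 7.53 to 9.04, and 1.84 to 2.06). The part that these cells and the ribosomal share have in the differences below was not tested. A fit without ribosomal RNA genes is described at the end. In bulk RNA, fewer cells of a type and less RNA per cell cannot be told apart.

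To compare the 3 depots, the 14770 genes that passed a filter on low counts were tested with edgeR's quasi-likelihood test, and DEGs were those past a 2-fold change at an adjusted p below 0.05. Hapln1 had 0 counts in every sample and was not tested, which left 9 of the 10 genes. Against SASCs, 2 of the 9 were upregulated DEGs in EASCs and 2 in PASCs, Hapln3 and Hmmr in each case, and none was a downregulated DEG. Of all genes tested, 27.8% were DEGs in EASCs (13.5% higher and 14.2% lower) and 26.9% in PASCs (12.0% higher and 14.9% lower). Between EASCs and PASCs, 1 of the 9 was a DEG, Has1, which was lower in EASCs, beside 7.39% of all genes (5.19% higher and 2.20% lower). Without TMM, the median of all genes shifted to -0.39 in EASCs and -0.33 in PASCs on the log2 scale, and the hyaluronan DEGs numbered 5 in EASCs (Has2, Vcan, and Tnfaip6 added as lower) and 4 in PASCs (Has2 and Has3 added as lower). In that setting, 32.3% of all genes were DEGs in EASCs (9.13% higher and 23.2% lower) and 30.0% in PASCs (8.54% higher and 21.4% lower). Between EASCs and PASCs, Has1 was then still the 1 DEG of the 9, beside 6.84% of all genes (4.40% higher and 2.44% lower). Fold changes below are log2 values.

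Smaller changes were frequent among the 9 genes and among all genes. Whatever the fold change, an adjusted p below 0.05 was reached by 7 of the 9 in EASCs against SASCs (3 higher and 4 lower), beside 69.7% of all genes. In PASCs against SASCs it was reached by 8 of the 9 (4 higher and 4 lower), beside 69.2%, and between EASCs and PASCs by 4 of the 9, all lower in EASCs, beside 30.7%. The median log2 fold change of the 9 genes was -0.26, -0.01, and -0.16 in these 3 comparisons, and that of all genes was 0.01, -0.01, and -0.01. Both comparisons with SASCs use the same SASCs samples, so their values are set side by side below and are not counted as support for each other.

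**Figure D1:**
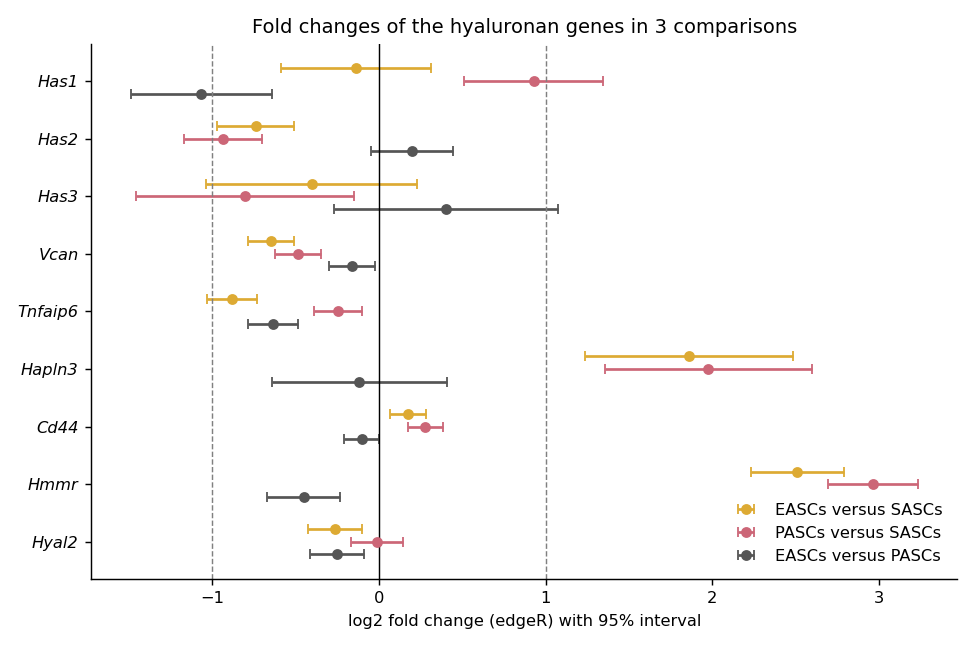
Log2 fold change (x axis) of the 9 tested hyaluronan genes (y axis) in EASCs versus SASCs, PASCs versus SASCs, and EASCs versus PASCs, with points for the estimate and bars for its 95% interval from edgeR's fit. Hmmr (2.51 and 2.96) and Hapln3 (1.86 and 1.98) lie farthest above 0 in the comparisons with SASCs, while Has1 (-1.07) lies farthest below it between EASCs and PASCs.

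Among the synthases, Has2 is the main hyaluronan synthase of many mesenchymal cells and is required for early heart development. Has2 (chr7:96438046-96464049 on rn6, minus strand) had 16.2, 15.8, and 15.6 CPM in SASCs, 8.37, 7.70, and 8.89 CPM in PASCs, and 11.0, 8.79, and 8.67 CPM in EASCs. All SASCs samples lay above all others, while the ranges of PASCs and EASCs overlapped. Its log2 fold change was -0.94 in PASCs (SE 0.114, adjusted p = 4.23e-08) and -0.74 in EASCs (SE 0.112, adjusted p = 1.69e-06), short of a fold change of 2. The difference between EASCs and PASCs was 0.20, with a 95% interval of -0.05 to 0.44 and an adjusted p of 0.231.

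Has1 codes for a synthase that needs higher concentrations of its sugar substrates. Has1 (chr1:59720612-59732409, minus strand) stood at 3.37, 3.82, and 2.39 CPM in SASCs, 6.50, 5.12, and 6.83 CPM in PASCs, and 3.35, 3.36, and 2.01 CPM in EASCs. These levels rest on 45 to 170 counts per sample. The 3 PASCs samples were the highest of the 9, and SASCs and EASCs overlapped. Against SASCs, Has1 rose by 0.93 in PASCs (SE 0.203, adjusted p = 2.34e-04), and in EASCs the difference was -0.14 (SE 0.218, adjusted p = 0.580), with an interval of -0.59 to 0.31. In PASCs, Has1 became a DEG without SASCs replicate 2 (1.07, adjusted p = 2.14e-04) and without PASCs replicate 2 (1.05, adjusted p = 1.62e-04). Between EASCs and PASCs the log2 fold change was -1.07 (SE 0.206, adjusted p = 1.82e-04), which made Has1 a DEG. This lies close to the threshold, and the call was lost without PASCs replicate 3 (-0.99) and without EASCs replicate 3 (-0.86), where adjusted p was 0.00141 and 0.00223. It was also lost under limma on log2(FPKM + 1), at -0.73.

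Has3, whose product tends to make shorter chains, had the lowest counts of the synthases, with 17 to 62 per sample. Has3 (chr19:39063319-39077745, plus strand) reached 1.46, 1.70, and 3.02 CPM in SASCs, 1.41, 1.12, and 0.900 CPM in PASCs, and 1.34, 1.86, and 1.39 CPM in EASCs. SASCs replicate 3 stood apart from the other 8 samples. In PASCs against SASCs the log2 fold change was -0.80 (SE 0.318, adjusted p = 0.0271), and without SASCs replicate 3 it was -0.44 with an adjusted p of 0.259. It also no longer passed without PASCs replicate 2 (adjusted p = 0.0646), without PASCs replicate 3 (adjusted p = 0.0869), or under limma on log2(FPKM + 1) (adjusted p = 0.0767), and Has3 became a DEG without SASCs replicate 1 (-1.01, adjusted p = 0.0111) and without TMM (-1.14, adjusted p = 0.00250). The other comparisons gave -0.40 for EASCs against SASCs (interval -1.04 to 0.23, adjusted p = 0.247), which ranged from -0.79 without TMM (adjusted p = 0.0338) to -0.04 with SASCs replicate 3 left out, and 0.40 for EASCs against PASCs (interval -0.27 to 1.07, adjusted p = 0.390). Has3 overlaps Chtf8 on the other strand, a gene with 1215 to 3016 counts, and because the use of strand in counting is not given in the sources used here, the reads of the 2 genes cannot be told apart.

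**Figure D2:**
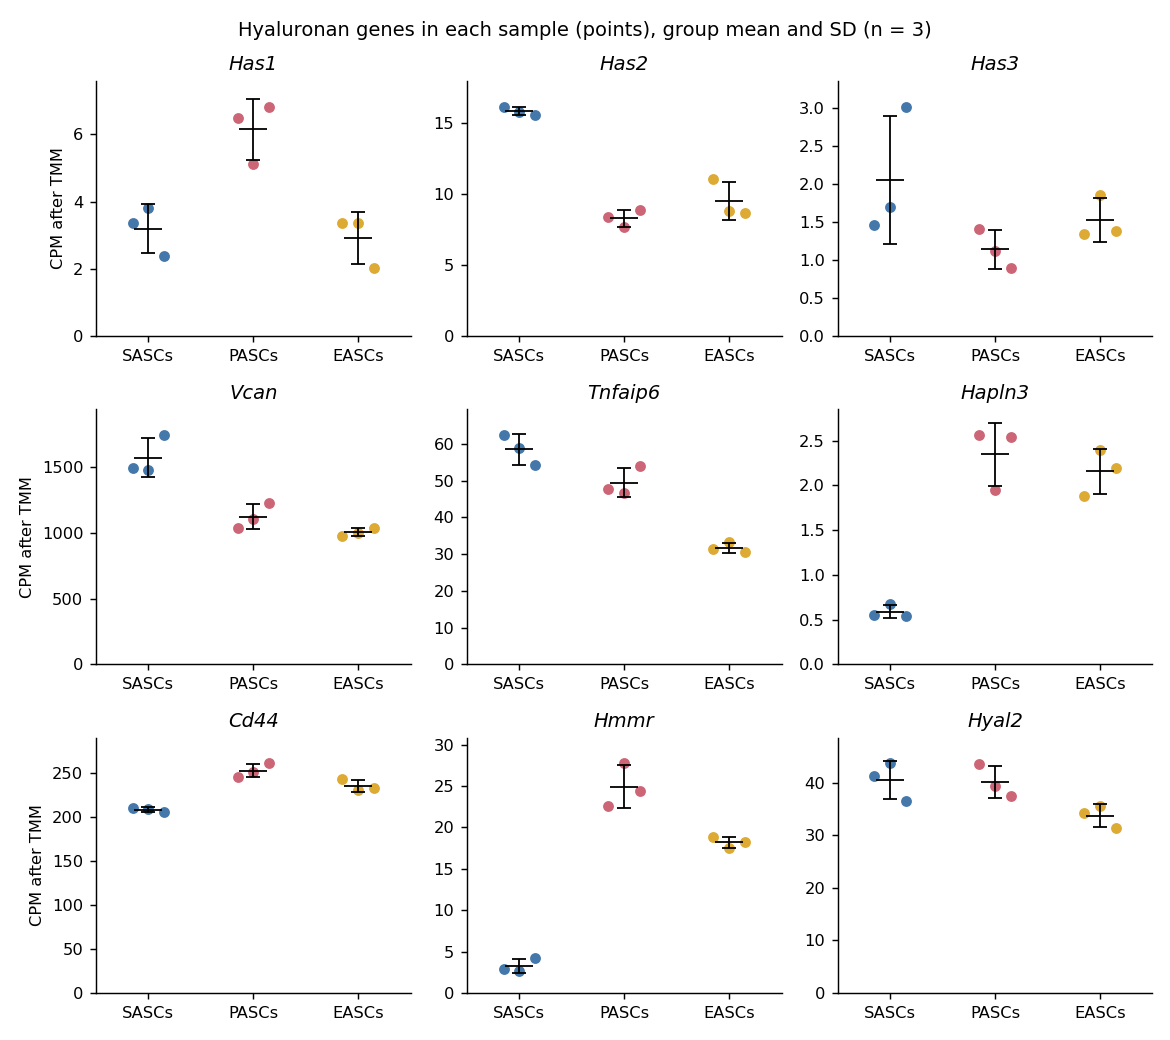
CPM after TMM (y axis, one scale per gene, from 0) of the tested hyaluronan genes in the 3 samples of SASCs, PASCs, and EASCs (x axis), with each point a sample and bars for the mean and SD. Has2 and Vcan are highest in all SASCs samples, Has1 in all PASCs samples, and Hmmr and Hapln3 are lowest in all SASCs samples.

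Per length, the makeup of synthase transcripts set PASCs apart from the other depots. Of the summed FPKM of the 3 synthases, Has2 took 68.4%, 65.1%, and 71.1% in the SASCs samples. Its share was 38.0%, 41.7%, and 38.7% in the PASCs samples and 60.0%, 53.4%, and 64.7% in the EASCs samples. The Has1 share was 27.1% ± 4.91 (SD, n = 3) for SASCs, 57.7% ± 2.20 for PASCs, and 35.6% ± 5.42 for EASCs. The FPKM of Has1 was therefore 1.47 ± 0.123 times (SD, n = 3) that of Has2 in PASCs, against 0.400 ± 0.0887 in SASCs and 0.609 ± 0.150 in EASCs. SASCs and EASCs overlapped in this ratio and in the Has1 share (21.7% to 31.3% and 29.9% to 40.7%). PASCs were the group in which the Has1 share exceeded the Has2 share in all 3 samples. The summed FPKM was 5.58 ± 0.292 (SD, n = 3) in SASCs, 5.07 ± 0.568 in PASCs, and 3.86 ± 0.605 in EASCs. The sums of SASCs and PASCs overlapped, and all EASCs sums lay below both, although the highest of them (4.41) came close to the lowest of PASCs (4.43). These shares are descriptions with no test.

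**Figure D3:**
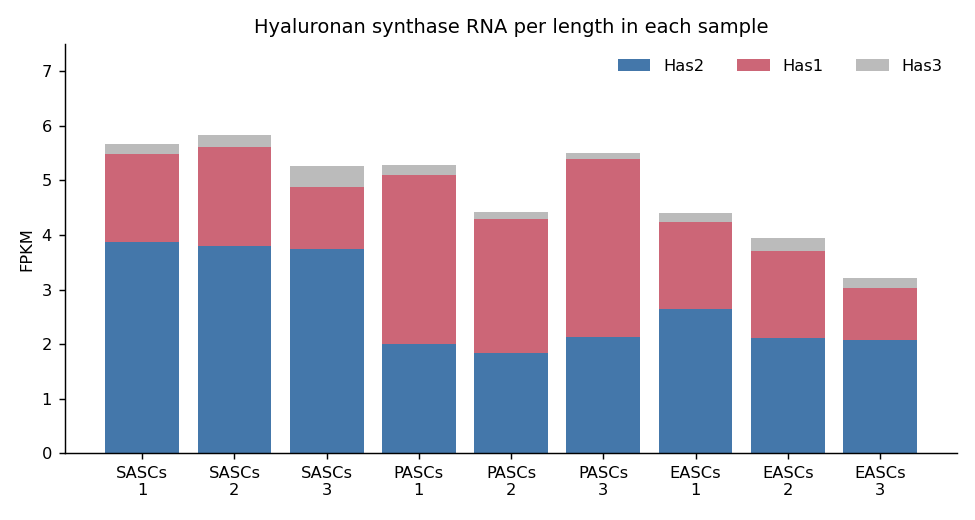
FPKM of Has1, Has2, and Has3 (y axis, stacked from 0) in each of the 9 samples (x axis, by group and replicate), where each color is a synthase. Has2 makes up the larger part of each bar in SASCs (65.1% to 71.1%) and EASCs (53.4% to 64.7%), and Has1 does so in PASCs (55.2% to 59.2%).

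Versican, coded by Vcan, is a chondroitin sulfate proteoglycan that binds hyaluronan through its amino-terminal domain and builds the loose coat of mesenchymal cells. It had the highest FPKM of the members in each group, at 130 ± 12.3 (SD, n = 3) in SASCs, 93.1 ± 8.07 in PASCs, and 83.2 ± 2.43 in EASCs. Vcan (chr2:18490102-18587340, minus strand) had 1488, 1478, and 1740 CPM in SASCs, 1037, 1099.8, and 1228 CPM in PASCs, and 974, 998, and 1033 CPM in EASCs. The SASCs samples were above all others, and the EASCs samples were below all others. Vcan was lower by a log2 fold change of -0.65 in EASCs (SE 0.0675, adjusted p = 2.61e-09) and of -0.48 in PASCs (SE 0.0674, adjusted p = 4.35e-07). Between EASCs and PASCs, the difference of -0.16 (interval -0.30 to -0.02) had an adjusted p of 0.0695 and passed under several alternatives, among them DESeq2 (0.0447) and no filter on low counts (0.0193). Vcan overlaps LOC102549574 on the other strand, which had 245 to 527 counts.

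TSG-6 moves heavy chains of inter-alpha-inhibitor onto hyaluronan and is a secreted protein by which mesenchymal stem cells dampen inflammation. Its gene Tnfaip6 is known to respond to inflammatory signals, among them those that act through AP-1, and its start region is therefore shown. The 250 bases before the start are from RefSeq (GRCr8, chr3:56911148-56911397, plus strand), with the AP-1 motif TGANTCA in capitals.
Tnfaip6: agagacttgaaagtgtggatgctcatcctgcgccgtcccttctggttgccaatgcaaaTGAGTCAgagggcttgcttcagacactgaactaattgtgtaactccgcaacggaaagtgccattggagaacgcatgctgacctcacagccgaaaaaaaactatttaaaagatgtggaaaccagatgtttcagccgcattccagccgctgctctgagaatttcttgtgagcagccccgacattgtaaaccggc
TGANTCA was found at 192 bases before the start, and on either strand it is present in 7.33% of 33469 start regions of 300 bases. It was found in Tnfaip6 alone among the 7 of 10 members with a start region in the RefSeq table. The match is a description of the sequence and not a binding site measured here.

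Tnfaip6 (chr3:37545238-37564704 on rn6, plus strand) had 62.4, 58.8, and 54.2 CPM in SASCs, 47.8, 46.5, and 54.0 CPM in PASCs, and 31.3, 33.3, and 30.7 CPM in EASCs. EASCs were the lowest group with no overlap, while the lowest SASCs sample lay just above the highest PASCs sample. Against SASCs, the log2 fold change of Tnfaip6 was -0.88 in EASCs (SE 0.0725, adjusted p = 2.17e-11) and -0.25 in PASCs (SE 0.0703, adjusted p = 0.00298). It was also lower in EASCs than in PASCs, at -0.63 (SE 0.0731, adjusted p = 7.96e-08). The heavy chain genes Itih1, Itih2, Itih3, and Itih4 had at most 8 counts in any sample. Of the 7 genes listed for heavy chain transfer and cross-linking, only Ptx3 was tested. Itih5, also on that list, was not among the genes counted, so its level is not known. Ptx3 codes for pentraxin 3, which cross-links heavy chains on hyaluronan, and its mean was 185 CPM in SASCs, 67.5 in PASCs, and 134 in EASCs. It was a downregulated DEG in PASCs (-1.45, adjusted p = 6.65e-19) and was not a DEG in EASCs (-0.46, adjusted p = 1.36e-08).

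Link proteins lock the bond between hyaluronan and proteoglycans such as versican. Hapln1, the cartilage link protein (chr2:18354542-18419077, plus strand), had 0 counts in all 9 samples, which allows at most 0.104 to 0.159 CPM. Hapln3 (chr1:140827279-140843664, minus strand) was present at low levels, at 0.556, 0.679, and 0.537 CPM in SASCs, 2.56, 1.94, and 2.54 CPM in PASCs, and 1.88, 2.39, and 2.19 CPM in EASCs. All SASCs samples were below all others, with 11 to 16 reads against 45 to 67. Hapln3 rose by 1.98 in PASCs (SE 0.301, adjusted p = 1.84e-06) and by 1.86 in EASCs (SE 0.304, adjusted p = 5.24e-06). PASCs and EASCs overlapped, and their difference of -0.12 had an interval of -0.64 to 0.41 (adjusted p = 0.778). With limma on log2(FPKM + 1), a scale that compresses low values, Hapln3 was not a DEG in either comparison.

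CD44 is the main hyaluronan receptor of the cell surface and a marker used to identify mesenchymal stem cells. Cd44 (chr3:92695083-92783807, minus strand) had 210.5, 209.6, and 205.7 CPM in SASCs, 246, 252, and 261 CPM in PASCs, and 243, 231, and 233 CPM in EASCs. The SASCs samples were the lowest of the 9, and the PASCs samples were the highest. Its log2 fold change was 0.28 in PASCs (SE 0.0516, adjusted p = 3.09e-05) and 0.18 in EASCs (SE 0.0516, adjusted p = 0.00394), but both turned negative without TMM, at -0.04 (adjusted p = 0.830) and -0.22 (adjusted p = 0.234), both above the shifted median of all genes in that setting. EASCs and PASCs differed by -0.10, with an interval of -0.21 to 0.00 and an adjusted p of 0.140.

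Hmmr codes for RHAMM, which was first described as a hyaluronan-binding protein of moving cells and also acts within the cell at the poles of the mitotic spindle, so that its transcript rises in dividing cells. Promoters of genes expressed in mitosis often hold CCAAT boxes and the CHR element TTTGAA. The 250 bases before the start of Hmmr are therefore given, from RefSeq (GRCr8, chr10:25665216-25665465, minus strand). Capitals mark the CCAAT boxes, read as ATTGG from the other strand, and the CHR element.
Hmmr: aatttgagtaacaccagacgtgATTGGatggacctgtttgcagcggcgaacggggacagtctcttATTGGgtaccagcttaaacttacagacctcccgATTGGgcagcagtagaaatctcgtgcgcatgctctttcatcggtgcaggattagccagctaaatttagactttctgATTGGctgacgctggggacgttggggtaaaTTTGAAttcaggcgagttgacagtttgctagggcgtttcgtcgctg
The start region of Hmmr holds 4 CCAAT boxes, at 228, 185, 152, and 76 bases before the start, and 1 CHR element at 46 bases before it. On either strand, CCAAT is present in 37.5% and TTTGAA in 18.3% of the 33469 start regions. Among 14 of 15 mitotic genes with a start region in the table, 12 held CCAAT and 8 held TTTGAA. Of the 7 hyaluronan genes with a start region, 3 held CCAAT and 4 held TTTGAA. The TATA box, TATAAA, was found in 1 of the 14 mitotic genes and in 0 of the 7, beside 14.2% of all regions. The motifs were searched in 300 bases, 250 before and 50 after the start, and these 4 motifs do not contain one another.

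Hmmr (chr10:25861490-25890639 on rn6, minus strand) had 2.85, 2.67, and 4.20 CPM in SASCs, 22.6, 27.7, and 24.4 CPM in PASCs, and 18.9, 17.5, and 18.2 CPM in EASCs. No groups overlapped, with SASCs lowest and PASCs highest. Hmmr had the largest change of the members, an upregulation of 2.96 in PASCs (SE 0.132, adjusted p = 3.37e-17) and of 2.51 in EASCs (SE 0.135, adjusted p = 1.99e-15). It was lower in EASCs than in PASCs by a log2 fold change of -0.45 (SE 0.107, adjusted p = 0.00161).

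A list of 15 other genes of the mitotic spindle and of mitosis was read beside Hmmr. All 15 were upregulated DEGs in EASCs and in PASCs against SASCs, beside 13.5% and 12.0% of all genes called higher, except that Aurka in EASCs was no DEG without TMM. Their medians were 2.48 (range 1.07 to 3.50) and 3.19 (range 1.55 to 4.06). Plk1, a kinase that drives mitosis, had log2 fold changes of 3.50 in EASCs and 4.06 in PASCs. Ccnb1, which codes for the mitotic cyclin B1, had log2 fold changes of 3.30 and 4.02, and those of its kinase Cdk1 were 2.88 and 3.34. Between EASCs and PASCs, none of the 15 was a DEG, and all 15 were lower in EASCs with an adjusted p under 0.05 (-0.96 to -0.35), beside 7.39% of all genes called and 30.7% passing at any fold change in either direction. Without TMM, Kif11 and Top2a were DEGs there, both lower in EASCs.

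As a share of the summed CPM of these 15 genes, Hmmr stood at 2.48% ± 0.537 (SD, n = 3) in SASCs, 2.49% ± 0.248 in PASCs, and 2.94% ± 0.127 in EASCs. The range of SASCs overlapped both others, while all EASCs shares lay above those of PASCs. The sum itself ranged over 126 to 136 CPM among SASCs, 986 to 1013 among PASCs, and 599 to 632 among EASCs, so its groups did not overlap and stood in the same order as those of Hmmr. These are descriptions with no test.

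**Figure D4:**
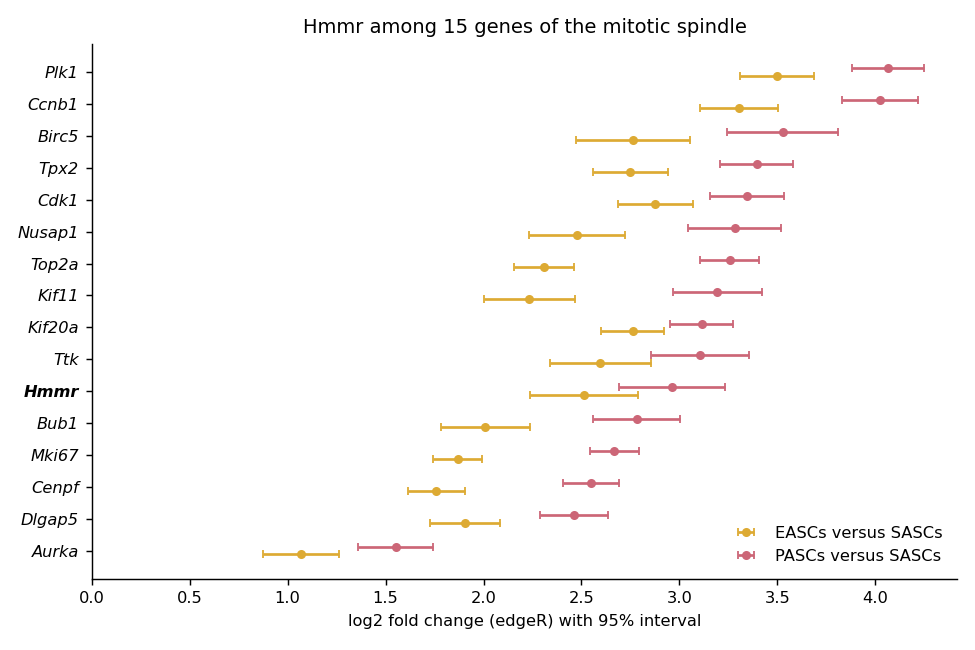
Log2 fold change (x axis) of Hmmr and 15 genes of mitosis (y axis, ordered by their value in PASCs) in EASCs versus SASCs and PASCs versus SASCs, with points for the estimate and bars for its 95% interval from edgeR's fit. All values lie to the right of 0, and Hmmr (2.51 and 2.96) lies within the range of the others (1.07 to 3.50 and 1.55 to 4.06).

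Hyal2 codes for a hyaluronidase anchored at the cell surface that cuts long chains into fragments. Hyal2 (chr8:116324037-116328978, plus strand) had 41.3, 43.7, and 36.6 CPM in SASCs, 43.6, 39.4, and 37.6 CPM in PASCs, and 34.2, 35.7, and 31.5 CPM in EASCs. SASCs and PASCs overlapped, and all EASCs samples lay below both. Hyal2 fell by 0.26 in EASCs against SASCs (SE 0.0778, adjusted p = 0.00394). Against PASCs it had a log2 fold change of -0.25 (SE 0.0780, adjusted p = 0.0143). This no longer passed without PASCs replicate 1 (adjusted p = 0.109) or EASCs replicate 3 (adjusted p = 0.0867). Among the alternatives that kept all samples, its adjusted p reached 0.240, so it did not pass in all of those either. PASCs and SASCs differed by -0.01, with an interval of -0.17 to 0.15 (adjusted p = 0.899).

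The members were also ordered by FPKM within each depot. Vcan was followed in SASCs by Tnfaip6 (42.6 ± 3.01, SD, n = 3) and Cd44 (39.0 ± 0.475), whose sample ranges did not overlap. In PASCs and EASCs that order was turned, with Cd44 at 47.3 ± 1.43 and 44.0 ± 1.23 and Tnfaip6 at 36.0 ± 2.90 and 23.1 ± 0.996. Hyal2 came next in each group, at 20.3 ± 1.79, 20.1 ± 1.54, and 16.9 ± 1.06. Hmmr was at 1.42 ± 0.364 in SASCs, where its range overlapped that of Has1 (1.52 ± 0.348), and at 10.9 ± 1.14 in PASCs and 7.97 ± 0.291 in EASCs, above all 3 synthases.

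The other genes of hyaluronan turnover were examined as lists, with 75 of 89 listed genes tested. Over all lists, 24 were upregulated and 10 downregulated DEGs in EASCs, 23 and 15 in PASCs, and 5 and 2 between EASCs and PASCs, and these counts include the 15 mitotic genes. The shares of all genes called in these comparisons were 27.8%, 26.9%, and 7.39%.

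Of the 9 genes listed for hyaluronan degradation, 7 were tested. All 7 were lower with an adjusted p under 0.05 in EASCs and in PASCs, with medians of -0.97 and -1.15, and 3 and 5 of them were downregulated DEGs. Of all genes, 69.7% and 69.2% passed at any fold change in either direction, and 14.2% and 14.9% were downregulated DEGs. The list leaves out the member Hyal2, which was lower in EASCs (-0.26, adjusted p = 0.00394) and differed by -0.01 in PASCs (adjusted p = 0.899). Cemip, which codes for a hyaluronan-binding protein needed for hyaluronan breakdown by fibroblasts, had 1486, 1460, and 1539 CPM in SASCs, 9.71, 8.97, and 9.69 CPM in PASCs, and 25.6, 24.2, and 28.9 CPM in EASCs. No groups overlapped, and SASCs stood far above both other groups. The log2 fold changes of Cemip were -7.31 in PASCs (SE 0.0803, adjusted p = 5.36e-30) and -5.83 in EASCs (SE 0.0727, adjusted p = 4.71e-29). EASCs were above PASCs, at 1.47 (adjusted p = 1.63e-14), which made it a DEG there too.

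Tmem2, a transmembrane protein tied to hyaluronan breakdown at the cell surface, had log2 fold changes of -1.74 in PASCs and -1.38 in EASCs. Hyal1, the lysosomal hyaluronidase, had log2 fold changes of -1.44 and -1.21, and its CPM was 12.7 ± 2.11 (SD, n = 3) in SASCs, 4.61 ± 0.564 in PASCs, and 5.46 ± 0.288 in EASCs. Each was a downregulated DEG in both. Hexa, which codes for a lysosomal enzyme that acts on the ends of fragments, had log2 fold changes of -1.03 in PASCs and -0.97 in EASCs, where it was not a DEG, although it was one without TMM. In that setting, 6 of the 7 tested genes were downregulated DEGs in EASCs, beside 23.2% of all genes. Hyal4 was at 0 counts and Spam1 at 2 or fewer in every sample. Tmem2 and Hyal3 overlap predicted genes on the same strand.

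The list of nucleotide sugar supply holds enzymes of the pathways around the substrates of the synthases, and not all of them work toward those substrates. It had 2 upregulated DEGs of 13 in EASCs and the same number in PASCs, beside 13.5% and 12.0% of all genes called higher. None was downregulated, and the medians were 0.24 in both. Uap1, which makes UDP-N-acetylglucosamine, rose by 2.60 in PASCs (adjusted p = 4.25e-24) and by 1.64 in EASCs (adjusted p = 6.27e-20). Its level was 85.3 ± 0.127 CPM (SD, n = 3) in SASCs, 519 ± 5.01 in PASCs, and 266 ± 14.7 in EASCs. Ugdh, which makes UDP-glucuronic acid, rose by 1.10 in PASCs and by 1.08 in EASCs, from 301 ± 11.6 to 643 ± 26.4 and 636 ± 27.9 CPM. Without TMM, Ugdh was not a DEG in either comparison, and the list had 1 higher and 2 lower DEGs in EASCs (Ugp2 and Gnpda1 lower) and 1 higher and 1 lower in PASCs (Ugp2 lower), beside 9.13% and 23.2% of all genes in EASCs and 8.54% and 21.4% in PASCs.

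**Figure D5:**
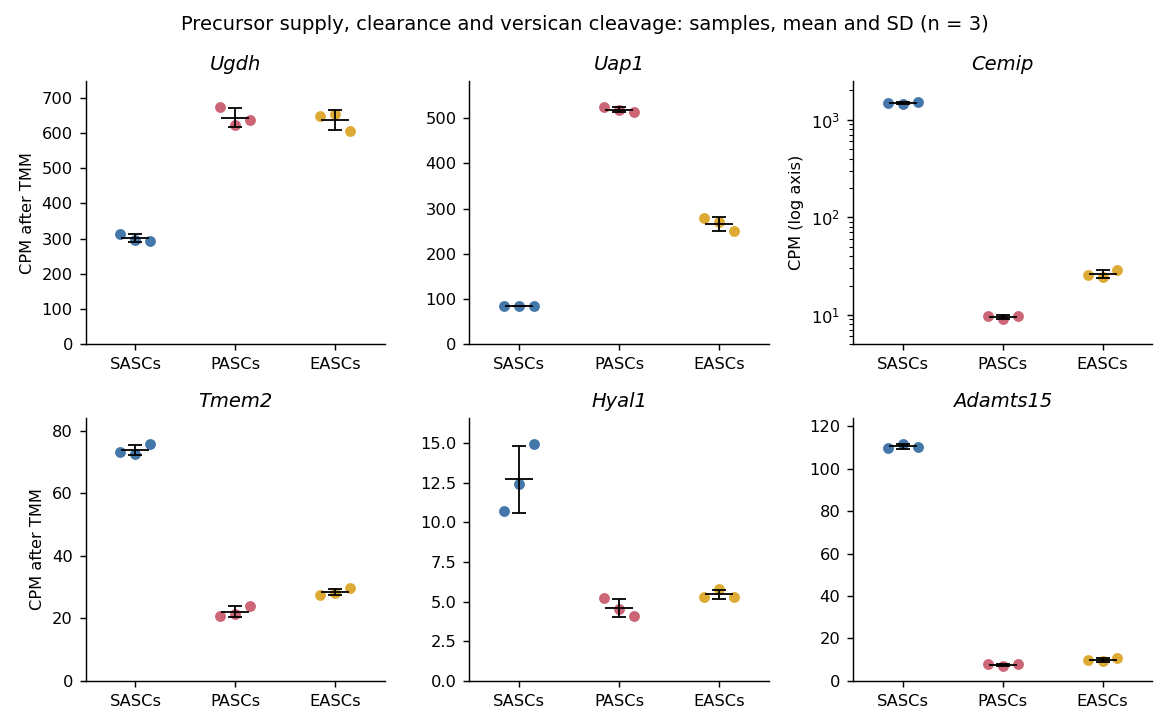
CPM after TMM (y axis, one scale per gene from 0, except a log axis for Cemip) of Ugdh, Uap1, Cemip, Tmem2, Hyal1, and Adamts15 in the 3 samples of SASCs, PASCs, and EASCs (x axis), with each point a sample and bars for the mean and SD. Cemip lies between 1460 and 1539 CPM in SASCs and at or below 28.9 CPM in the other 6 samples, while Uap1 is lowest in SASCs at a mean of 85.3 CPM.

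Of the other hyaluronan-binding genes, 7 of 12 were tested, with 2 up and 1 down in EASCs and 1 up and 2 down in PASCs, and median log2 fold changes of 0.32 and 0.08, beside 27.8% and 26.9% of all genes called. Without TMM, the counts in EASCs were 1 up and 2 down, with Lyve1 added as lower. Acan, which codes for the cartilage proteoglycan aggrecan, had 0 counts in all SASCs samples. It had 111, 54, and 83 counts in PASCs and 18, 19, and 34 in EASCs. Against the limit of 3 counts in an SASCs library, it was at least 24.3-fold higher in PASCs and at least 6.93-fold higher in EASCs. Layn, which codes for the hyaluronan receptor layilin, was a downregulated DEG in both, with log2 fold changes of -1.56 in PASCs and -1.85 in EASCs. Lyve1, the hyaluronan receptor of lymphatic vessels and of some macrophages, had 36, 20, and 13 counts in SASCs, 2, 0, and 3 counts in PASCs, and 18, 8, and 10 counts in EASCs, and was a downregulated DEG in PASCs (adjusted p = 3.66e-05). Stab1, a scavenger receptor, stood at 1.12 (log2 fold change) in EASCs, which was no DEG without TMM, and it overlaps Nt5dc2 on the other strand, which had 627 to 1551 counts. The summed CPM of 8 leukocyte markers was 49.5 to 55.3 for SASCs, 122 to 128 for PASCs, and 178 to 191 for EASCs, and that of 6 endothelial markers was 44.3 to 45.9, 11.6 to 14.6, and 30.5 to 33.1, although the endothelial marker Tek was lowest in SASCs (means of 2.55, 8.29, and 8.07 CPM). Their part in the values of Lyve1 and Stab1 was not tested.

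Of 5 tested proteases that can cut versican, 3 were downregulated and 1 upregulated in EASCs, and 4 were downregulated in PASCs, with median log2 fold changes of -1.34 and -1.44, while 14.2% and 14.9% of all genes were downregulated and 13.5% upregulated in EASCs. Adamts15 had log2 fold changes of -3.86 in PASCs and -3.48 in EASCs, and those of Adamts5 were -1.44 and -1.77. Adamts9 was a DEG in PASCs alone, at a log2 fold change of -1.12, with -0.29 in EASCs. Adamts1 stood at 1.02 (log2 fold change) in EASCs, which was no DEG without TMM, and 0.48 in PASCs.

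Among 9 genes of partners and cleaving enzymes of CD44, 1 was up and 2 down in EASCs, and 2 were up and 2 down in PASCs, with medians of 0.01 and 0.04, beside 27.8% and 26.9% of all genes called. Without TMM, Adam10 was added as lower in EASCs. Msn, which codes for moesin, a linker from the tail of CD44 to actin, rose by 2.13 in PASCs and by 2.23 in EASCs. Mmp14, a membrane-anchored protease that can shed CD44, had log2 fold changes of -2.65 and -1.96, and those of Adam17, another sheddase, were -1.41 and -1.56. Ezr, which codes for ezrin, a linker related to moesin, stood at 1.03 (log2 fold change) in PASCs, which was no DEG without TMM, and 0.26 in EASCs. Of 18 genes that build the chondroitin sulfate chains carried by versican, 3 were up and 1 down in each comparison with SASCs, with medians of 0.10 and 0.14 and beside 27.8% and 26.9% of all genes called. Chst15, a sulfotransferase, had log2 fold changes of -2.34 in PASCs and -3.97 in EASCs. Chst13, Chst3, and Chsy1 were upregulated, with log2 fold changes of Chst13 at 2.95 and 2.40, Chst3 at 1.11 and 2.13, and Chsy1 at 1.32 and 1.83, although without TMM Chst3 and Chsy1 were no DEGs in PASCs and Csgalnact1 was added as lower there.

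To describe the pattern of each member over the 9 samples, the gene with the highest Pearson correlation of log2 CPM was sought among genes with a mean CPM of at least 10. Hmmr was most like Rnf219 (r = 0.998), Dio3 (r = 0.998), and Kntc1 (r = 0.997), and Has2 most like Paxbp1 (r = 0.994). Vcan was most like Trim33 (r = 0.995), Cd44 most like Ykt6 (r = 0.993), and Hapln3 most like Iars (r = 0.991). For Tnfaip6 the highest value was 0.988 with Steap3, for Has1 it was 0.980 with Cox7b, for Hyal2 0.969 with Iscu, and for Has3 0.930 with Ndufv3. These values are a description across 9 samples that fall into 3 groups and share their libraries and depth.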

How the data were processed

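SASCs, PASCs, and EASCs were sequenced by the authors as paired-end reads of 150 bp at passage 3. Reads were trimmed with cutadapt and FastX-Toolkit and aligned with TopHat. The paper gives the rat genome rn6, while the submitters' processing notes list TopHat2 and rn5. The gene positions of the table match rn6 and are used here. The deposited values are counts of reads per gene, whole numbers that are not normalized. The counting tool and its use of strand are not given in the sources used here. The counts of Rn18s, Rn28s, and Rn5-8s sum to 99.9% or more of those of Rn45s, which contains them, so reads in overlapping genes were counted for each. The methods give 6 replicates per group, and 3 samples per group were analysed here, assigned by their labels. Metabolite data were not analysed here.

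Counts were scaled with TMM (factors 0.740 to 1.23), filtered with filterByExpr, and fitted in one model of all 9 samples with edgeR 4.0.16 in R 4.3.3, without a block. P-values were adjusted by Benjamini-Hochberg over the 14770 genes tested in each comparison. A gene was called a DEG past a 2-fold change at an adjusted p below 0.05, as in the study. CPM and FPKM were computed from counts, TMM-scaled totals, and the lengths in the table. The fit was tried on simulated counts in which a small share of genes, none of them with few counts, was changed in EASCs alone. That trial does not cover genes with few counts or changes as widespread as those found here. Start regions are from RefSeq (GRCr8). All 10 members were named, and, of each list, at most 5 DEGs with the largest change. Some genes that this rule selects are not reported here. The members and lists were chosen with earlier results of these data known. Replicates of a group differed by more than counting noise, so none was taken for a library deposited again.

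The alternatives were DESeq2 1.42.0, no filter, a fit of 2 groups at a time, a replicate block, totals without TMM, upper quartile scaling, removal of ribosomal RNA genes, limma 3.58.1 on log2(FPKM + 1), each sample left out, and other thresholds.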

Additional observations from a re-analysis of the deposited data

How the results depend on the processing

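With each member's log2 fold change counted once per comparison and per alternative that keeps all samples, 208 values kept their direction and their side of an adjusted p of 0.05, while 4 came to pass it, 2 no longer did, and 2 turned. Without TMM, 5 hyaluronan genes were DEGs in EASCs (with Has2, Vcan, and Tnfaip6 added as lower) and 4 in PASCs (with Has2 and Has3 added as lower), beside 32.3% and 30.0% of all genes, and Cd44 turned to -0.219 and -0.0440. Without ribosomal RNA genes, no call of a member or of a listed pathway gene was gained or lost. Upper quartile scaling changed no member call, while Habp4 was added as higher in PASCs against SASCs and Ptx3 as higher in EASCs against PASCs. Under limma on log2(FPKM + 1), the hyaluronan DEGs were 1, 1, and 0 in EASCs against SASCs, PASCs against SASCs, and EASCs against PASCs, with 1895, 1823, and 265 DEGs of all genes and 0 pathway DEGs between EASCs and PASCs. At any fold change, the counts in that order were 7, 8, and 4 hyaluronan genes, 64, 63, and 47 pathway genes, and 10299, 10227, and 4529 of all genes. Above a fold change of 4 they were 1, 1, and 0, then 18, 24, and 1, then 1716, 1660, and 304. With each sample left out in turn, the hyaluronan DEGs numbered 2 to 2, 2 to 3 (with Has1 or Has3 added), and 0 to 1 (Has1), beside 27.1% to 28.4%, 26.2% to 27.2%, and 6.73% to 7.32% of all genes. With 1 sample left out, the log2 fold change ranged from -0.296 to 0.0647 for Has1 in EASCs against SASCs and from -0.0764 to 0.0437 for Hyal2 in PASCs against SASCs, and neither passed. The cause of these changes was not tested. In the fit with a replicate block, the hyaluronan DEGs were the same genes as without a block, and the pathway DEGs were as many as without it. Vcan between EASCs and PASCs then passed, with an adjusted p of 0.0151. Deviations of samples with the same number correlated at -0.0252 to 0.0590, and 8 of 18 best matches had the same number, so the numbers were not taken to pair the samples. Has3, Hapln3, Has1, and Lyve1 rest on few counts, and depth limits what can be said of them.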
